A study of Homo sapiens with 31 samples.

Results

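MECOM and PRDM16 are paralogous genes of the PRDM family of zinc finger transcription factors, and EVI1 is the shorter protein made from MECOM. The 2 genes were taken with 50 kb of flank on either side, and every peak of the 13 deposited peak lists that touched these windows was counted. They are 2 of 20163 protein-coding genes examined in the same way. Merging all lists gave 22 sites at MECOM and 50 at PRDM16, of 131683 merged sites in the whole series. The windows were set by gene coordinates, not by peak values.

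MECOM has a pair of promoters far apart. The upstream one gives MDS1-EVI1, which carries a PR domain like other members of the family, and the downstream one gives EVI1, which lacks it. Inversions and translocations of chromosome 3 in acute myeloid leukemia place an enhancer of the blood stem cell gene GATA2 next to MECOM, and EVI1 is then expressed at high levels. EVI1 binds the corepressor CTBP2 through a short PLDLS peptide motif, and PRDM16 carries the same motif.

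ChIP-seq for EVI1 and CTBP2 was examined in MUTZ3 and MOLM1, 2 human leukemia cell lines in which MECOM is rearranged. One library for each factor came from unmodified MUTZ3 cells. One CTBP2 library came from MOLM1 cells that carried a dox-inducible shRNA against EVI1 and had not been treated with dox. A pair of CTBP2 libraries came from MUTZ3 cells with the p50MX-3xFLAG-3xNLS-4xPLASS-Zeo vector, which encodes 4 copies of a mutated control peptide. The other 8 libraries came from MUTZ3 cells with the dox-inducible pCW-4xPLDLS vector, labelled 72 h, with 2 libraries for each factor untreated and 2 with dox, which switches on 4 copies of the PLDLS peptide. The labels number these libraries as replicates without saying whether they came from separate cultures, so the spread between them may be technical. Each treatment of the inducible cells had 1 input library, which its EVI1 and CTBP2 libraries shared. An EVI1 peak list of MOLM1 was not analysed here.

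Some libraries stood apart before any result. The lists held from 6688 to 72214 peaks, and the shortest was 4xPLASS replicate 1, beside 31310 peaks in 4xPLASS replicate 2. CTBP2 lists of the inducible cells held 62232 and 56526 peaks untreated and 24588 and 23878 with dox, so the dox lists of CTBP2 were shorter throughout. Unmodified MUTZ3 CTBP2 was labelled as a single crosslink and EVI1 as a double crosslink, and their lists are not matched in protocol. Counts of reads were not given, so the depth behind each peak is unknown.

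MECOM lies on the minus strand of chromosome 3 at chr3:168801287-169381563 (hg19) and its window covered 680.3 kb. The MDS1 start is at position 169381563. A cluster of 11 protein-coding transcripts of EVI1 starts between 168864076 and 168865522, some 516.0 kb downstream of it. PRDM16 lies on the plus strand of chromosome 1 at chr1:2985732-3355185, with a window of 469.5 kb. In each window, sites were numbered in the order of their chromosome positions.

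The strongest EVI1 site of both windows was MECOM site 3 at the EVI1 starts (chr3:168864879-168865782). The sequence under its highest summit and that of its neighbour, MECOM site 2 (chr3:168863872-168864540), are shown because the gene encoding EVI1 was itself bound by EVI1 at these points. Both lie in an exon that is annotated as untranslated in at least 1 transcript, so 30 bases are given for each. Sequences at MECOM are given on the minus strand, in the direction of the gene. Capitals would mark a match to the motifs searched, and these stretches hold none.

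MECOM site 3, chr3:168865222-168865251: ctgggcggcgggagatagctccctttctcc
MECOM site 2, chr3:168864306-168864335: gcgatttccttgttcctcctgcgaaacggt

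RefSeq lists 3 MECOM promoters, each of which matched hg19 at 1 place on chromosome 3. MECOM site 3 covered all 300 bases of one of them, whose start is at position 168865260, and site 2 covered 263 bases of another, whose start is at 168864328. In the 12 lists with a peak at site 3, the summit lay between 2 and 58 bp from the RefSeq start. The EVI1 summits of the inducible cells were 2 and 23 bp from it untreated and 30 and 26 bp from it with dox. At site 2 the summits lay between 7 and 152 bp from the start. No site overlapped the third RefSeq promoter, at the MDS1 start.

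EVI1 was enriched over input at MECOM site 3 in every EVI1 library. Fold enrichment is the ratio of ChIP to control signal at the summit as given by the peak caller. It was 27.3 in unmodified MUTZ3, 50.7 and 68.3 in untreated inducible cells, and 39.5 and 37.8 with dox. The site stood at rank 80 of 51389 and 106 of 72214 peaks in the untreated lists, and at 349 of 53806 and 272 of 47599 with dox. Among all protein-coding gene windows, 0.754% and 1.18% held an EVI1 peak as high in the untreated lists, and 3.45% and 2.39% with dox. The site was thus near the top of each list, and both dox values were below both untreated values.

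CTBP2 was present at the same site. Its fold enrichment was 6.20 in unmodified MUTZ3, 17.5 in MOLM1 and 14.98 in 4xPLASS replicate 2, while 4xPLASS replicate 1 had no peak in the whole window. In the inducible cells it was 30.8 and 25.8 untreated and 10.5 and 7.47 with dox, a mean of 28.3 ± 3.49 (SD, n = 2) against 9.001 ± 2.16 (SD, n = 2). The rank of the site went from 477 of 62232 and 446 of 56526 peaks to 1025 of 24588 and 4764 of 23878. EVI1 and CTBP2 summits of untreated replicate 1 lay 60 bp apart.

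**Figure D1:**
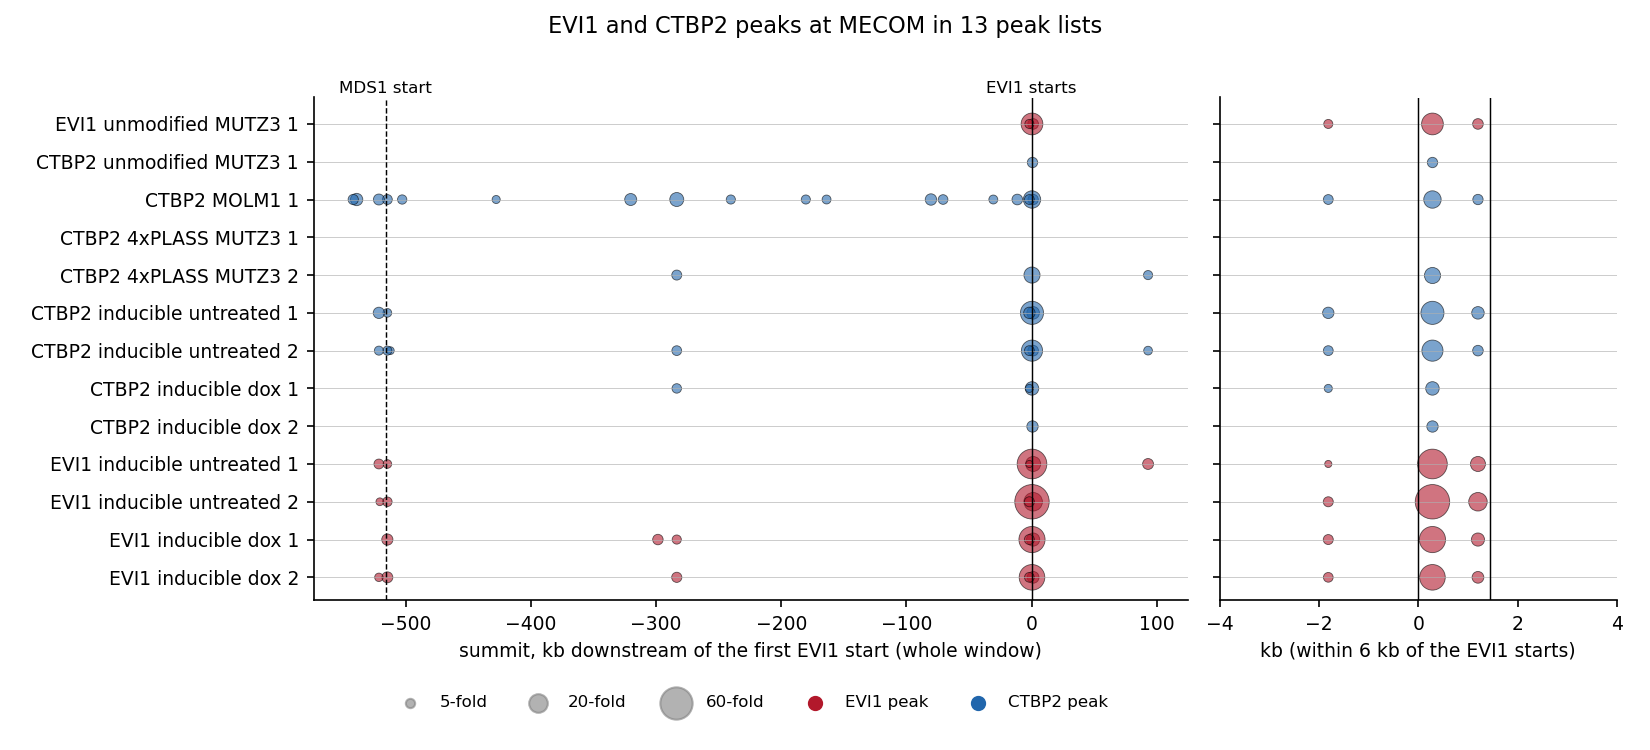
Peaks at MECOM in the 13 lists, plotted by the distance of each site's strongest summit in kb downstream of the first EVI1 start, over the whole window (left) and within 6 kb of the EVI1 starts (right, where the 2 lines bound the start cluster). Circle area stands for fold enrichment (red EVI1, blue CTBP2). The large circles sit at the EVI1 starts, while MOLM1 has isolated small ones between the EVI1 starts and the MDS1 start.

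With dox, CTBP2 enrichment at MECOM site 3 was 3.14 times lower, a log2 difference of -1.65. It was read against all sites with a CTBP2 peak in the 4 inducible lists, because the dox lists were weaker throughout. In 72.5% of those 14297 sites both dox values lay below both untreated values, and the median log2 difference was -0.88. Of these sites, 9.27% had a log2 difference at or below that of site 3. The EVI1 difference at site 3 was smaller, at -0.62 on the log2 scale, against a median of -0.25 over 31340 sites with an EVI1 peak in the 4 lists. Both dox values of EVI1 lay below both untreated values at 35.5% of those sites, and 24.4% of them had a log2 difference at or below that of site 3. With 2 libraries against 2, an exact two-sided permutation test cannot give a p below 0.33, so no single site could pass a threshold.

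Around the EVI1 starts, 3 sites lay within 5 kb. At site 2, over the main group of starts, EVI1 enrichment was 6.55 in unmodified MUTZ3, 13.03 and 19.8 in untreated inducible cells and 10.0 and 7.97 with dox. CTBP2 at site 2 was 6.15 in MOLM1 and 9.09 and 6.50 in untreated inducible cells. No CTBP2 peak was called there in unmodified MUTZ3, in either dox list or in either 4xPLASS list. Site 2 was therefore an EVI1 site in all 5 MUTZ3 EVI1 lists, while among the inducible libraries its CTBP2 peak was called in the untreated ones only.

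MECOM site 4 (chr3:168867050-168867741) lay in an intron, with its summit at -1.81 kb relative to the first EVI1 start. Its EVI1 enrichment was 4.76 in unmodified MUTZ3, 2.96 and 5.80 untreated and 5.79 and 5.48 with dox, so the groups overlapped. CTBP2 was 7.49 and 5.61 untreated, 3.80 in dox replicate 1 and without a peak in dox replicate 2. From the EVI1 starts to the 3′ end of the gene, which holds the coding exons of EVI1, 0 sites were called in any of the 13 lists.

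No site overlapped the MDS1 start itself. MECOM site 18 (chr3:169379372-169381163) lay just downstream of that start, with its strongest summit 1.24 kb into the gene, in an intron. Its sequence is shown because it is the one MECOM site at which both EVI1 values were higher with dox while CTBP2 was no longer called.

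MECOM site 18, chr3:169380263-169380383: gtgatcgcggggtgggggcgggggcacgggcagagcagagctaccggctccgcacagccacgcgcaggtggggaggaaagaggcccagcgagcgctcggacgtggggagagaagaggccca

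EVI1 enrichment at MECOM site 18 was 4.32 and 5.25 untreated and 7.24 and 6.94 with dox, with no EVI1 peak in unmodified MUTZ3. Both dox values were above both untreated values, a log2 difference of 0.57. CTBP2 there was 4.37 and 4.74 untreated and 5.68 in MOLM1, with no peak in either dox list. The EVI1 and CTBP2 summits of untreated replicate 1 lay 444 bp apart. Those of untreated replicate 2 were closer, at positions 169380269 (EVI1) and 169380310 (CTBP2). The EVI1 summits of the inducible lists spread over 306 bp, so the EVI1 values need not belong to the same peak. The 201 bases around the strongest summit of site 18 were 72.1% G and C. Among all EVI1 sites called in 4 lists, 13.3% had both dox values above both untreated values, so this direction was the less common one.

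MECOM site 20 (chr3:169386842-169387327), at -5.52 kb relative to the MDS1 start, had CTBP2 enrichment of 7.38 and 4.74 untreated and 6.98 in MOLM1, and no CTBP2 peak with dox. EVI1 was called in only 1 library of each treatment, at 5.62 untreated and 4.12 with dox. MECOM site 1 (chr3:168772328-168772820), beyond the 3′ end of the gene, was called in 3 lists, with an EVI1 enrichment of 6.90 in untreated replicate 1. At both sites only 1 of the 2 untreated EVI1 libraries had a peak.

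MECOM site 12 (chr3:169148926-169149229) lay in an intron, 232.5 kb downstream of the MDS1 start. It was called in 6 lists, and it was outside the naming rule of the sites and chosen after its values were seen. CTBP2 enrichment was 11.3 in MOLM1, 5.79 in 4xPLASS replicate 2, 5.50 in untreated replicate 2 and 5.21 in dox replicate 1. EVI1 was 4.87 and 5.98 with dox, and no EVI1 peak was called in either untreated list. It carries 1 of the motifs searched, in capitals (TGTGGT, read on the other strand).

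MECOM site 12, chr3:169149018-169149138: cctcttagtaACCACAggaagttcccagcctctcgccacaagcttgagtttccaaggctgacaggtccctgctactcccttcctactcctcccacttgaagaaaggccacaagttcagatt

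MOLM1 differed from MUTZ3 in where its peaks lay at MECOM. Of its 19 peaks in the window, 12 touched no peak of the 12 MUTZ3 lists, against 31.1% of all 64569 MOLM1 peaks. The other 7 did (36.8%, 95% Wilson interval 19.1 to 59.0%), against 68.9% of all MOLM1 peaks, and at PRDM16 it was 7 of 10. These 12 were between 99 and 279 bp wide with a median of 120.5 bp, and their fold enrichment ran from 3.80 to 8.77. All MOLM1 peaks had a median width of 179 bp and a median enrichment of 6.66. Of the 12 sites lying more than 5 kb inside the stretch from the EVI1 starts to the MDS1 start, 10 were called only in MOLM1. The MOLM1 window did not hold many peaks for its length, at 2.79 per 100 kb against a median of 3.63 over all protein-coding gene windows. MOLM1 was 1 library without a replicate, and a difference between cell lines cannot be told apart from one between libraries.

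CTBP2 sites of MUTZ3 were also looked up in MOLM1. The single CTBP2 peak of unmodified MUTZ3 in the MECOM window, at site 3, overlapped a MOLM1 peak, as did 70.2% of all 16836 unmodified MUTZ3 CTBP2 peaks. The 5 MECOM sites with CTBP2 in both untreated inducible lists were all found in MOLM1, beside 61.9% of such sites genome-wide. At PRDM16 it was 1 of 2 unmodified peaks and 4 of 8 inducible sites. These counts are small, and the 95% Wilson interval for 5 of 5 starts at 56.6%.

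PRDM16 showed another layout. Its strongest EVI1 sites were spread through its introns. The start itself (position 2985732) was overlapped by PRDM16 site 3 (chr1:2985486-2985773), which was called in 1 list only, EVI1 untreated replicate 2, with an enrichment of 4.56. Of the 50 sites, 35 had their summit in an intron of PRDM16 and 11 inside ARHGEF16, a neighbouring gene for a guanine nucleotide exchange factor of small GTPases. Of 11 sites with an EVI1 peak in the 4 inducible EVI1 lists, 9 were intronic. ACTRT2, an actin-related gene that also starts in the window, had its nearest sites at 10383 and 11386 bp downstream of its start.

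**Figure D2:**
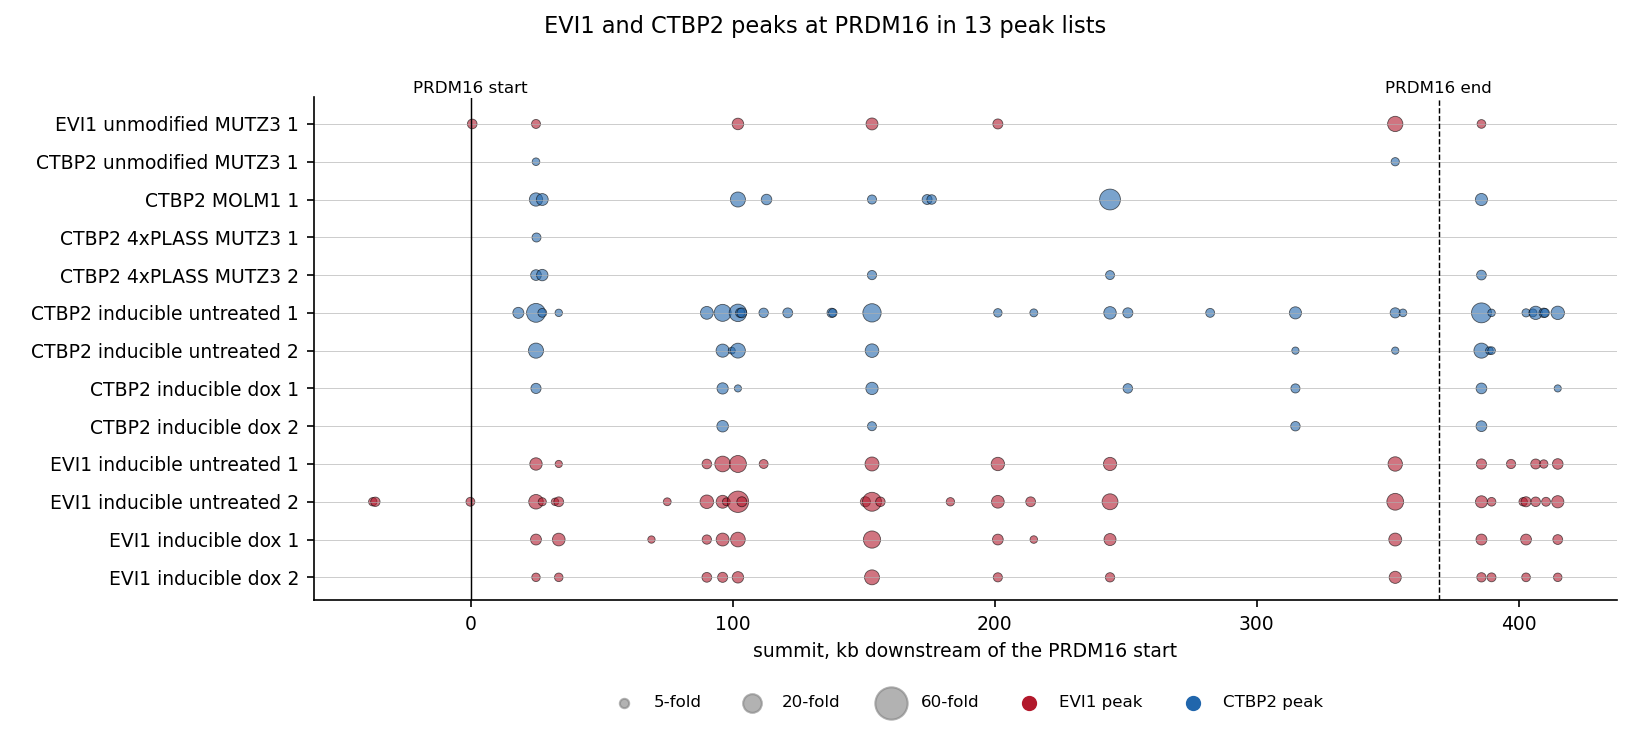
Peaks at PRDM16 in the 13 lists, plotted by the distance of each site's strongest summit in kb downstream of the PRDM16 start, with the gene's end dashed. Circle area stands for fold enrichment (red EVI1, blue CTBP2), and sites beyond the dashed line are mostly inside ARHGEF16.

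The sequences at 6 of the intronic PRDM16 sites follow on the plus strand, 121 bases centred on the strongest summit. They are shown because these sites held EVI1 in the 4 inducible EVI1 lists and ranked high for EVI1 or CTBP2 or, for site 33, for MOLM1. Capitals mark the motifs that were searched.

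PRDM16 site 6, chr1:3010639-3010759: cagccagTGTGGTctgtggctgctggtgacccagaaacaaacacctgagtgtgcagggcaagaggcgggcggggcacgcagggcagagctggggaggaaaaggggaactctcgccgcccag
PRDM16 site 13, chr1:3081849-3081969: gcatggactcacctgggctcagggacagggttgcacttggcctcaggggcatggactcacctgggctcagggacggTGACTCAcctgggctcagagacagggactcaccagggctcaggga
PRDM16 site 16, chr1:3087686-3087806: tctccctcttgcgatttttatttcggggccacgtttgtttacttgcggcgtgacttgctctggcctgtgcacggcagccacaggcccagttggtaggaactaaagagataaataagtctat
PRDM16 site 25, chr1:3138840-3138960: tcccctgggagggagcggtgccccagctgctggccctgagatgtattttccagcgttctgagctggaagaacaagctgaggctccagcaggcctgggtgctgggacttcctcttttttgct
PRDM16 site 33, chr1:3229659-3229779: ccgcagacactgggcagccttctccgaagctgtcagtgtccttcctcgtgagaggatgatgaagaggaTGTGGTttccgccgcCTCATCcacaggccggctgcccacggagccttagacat
PRDM16 site 37, chr1:3338479-3338599: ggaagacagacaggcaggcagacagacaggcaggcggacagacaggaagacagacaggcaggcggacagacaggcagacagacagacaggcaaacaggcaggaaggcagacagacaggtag

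Site 16 (chr1:3086732-3088320) was the highest EVI1 site of PRDM16 in both untreated inducible lists, while site 37 was higher in unmodified MUTZ3 and site 25 with dox. EVI1 enrichment was 7.70 in unmodified MUTZ3, 16.6 and 26.3 in untreated inducible cells and 12.4 and 7.54 with dox. CTBP2 was 13.04 in MOLM1, 17.6 and 12.8 untreated, 2.96 in dox replicate 1 and without a peak in dox replicate 2. Both dox values of EVI1 lay below its untreated ones, and the 1 dox value of CTBP2 lay below both of its untreated values. For EVI1 the log2 difference was -1.10, and 5.66% of all EVI1 sites called in the 4 lists had a difference at or below it.

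Site 25 (chr1:3138565-3139564) held EVI1 with overlapping groups, at 11.3 and 20.7 untreated and 17.1 and 12.9 with dox. CTBP2 at the same site was 19.4 and 10.6 untreated and 8.77 and 4.69 with dox, a log2 difference of -1.16 with no overlap. It was also called in unmodified MUTZ3 for EVI1, in MOLM1 and in 4xPLASS replicate 2, which made 11 lists. The EVI1 and CTBP2 summits of untreated replicate 1 lay 36 bp apart.

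Site 6 (chr1:3010265-3010982), 24.97 kb into the gene, was called in 12 lists, all but CTBP2 dox replicate 2. EVI1 enrichment was 8.90 and 12.2 untreated and 6.87 and 4.16 with dox. CTBP2 was 20.5 and 13.2 untreated and 6.02 in dox replicate 1. It was the one peak at PRDM16 in 4xPLASS replicate 1, at 4.71, and CTBP2 in unmodified MUTZ3 was 3.36.

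Site 33 (chr1:3229446-3230003) was the highest MOLM1 site of PRDM16, with a CTBP2 enrichment of 25.03. In MUTZ3 CTBP2 was 9.03 in untreated replicate 1 and 4.66 in 4xPLASS replicate 2, with no peak in untreated replicate 2 or in either dox list. EVI1 was 10.1 and 14.6 untreated and 8.38 and 5.02 with dox.

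PRDM16 sites 13 and 37 lay on tandem repeats, as their sequences above show. A tandem repeat was scored as the largest share of bases, among the 201 around a summit, that equal the base a fixed shift of up to 60 bases further on, and a share of at least 70% was counted. This measure was chosen after the sequences were seen. It reached 88.2% at a shift of 48 bases in site 13 and 80.3% at 44 bases in site 37. Of the 50 PRDM16 sites, 5 passed it (13, 19, 36, 37 and 46), or 10.0%, against 0.761% of 20362 sites on chromosomes 1 and 3 and 0 of 22 at MECOM.

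At site 13 (chr1:3081320-3082746) EVI1 enrichment was 14.2 and 9.62 untreated and 9.64 and 5.84 with dox, and CTBP2 was 16.7 and 9.95 untreated and 7.33 and 7.74 with dox. No list of unmodified MUTZ3, MOLM1 or 4xPLASS had a peak there, so it was seen in the 8 inducible libraries alone. At site 37 (chr1:3338239-3339174) EVI1 was 13.5 in unmodified MUTZ3, 12.03 and 16.3 untreated and 9.66 and 8.50 with dox. CTBP2 at site 37 was 3.94 in unmodified MUTZ3, 5.96 and 3.05 untreated and not called with dox.

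Site 36 (chr1:3300050-3300771), another repeat, was called for CTBP2 alone, at 8.49 and 3.05 untreated and 4.81 and 5.19 with dox. EVI1 was not called there in any list. It was the only PRDM16 site with CTBP2 in the 4 inducible CTBP2 lists and no EVI1 peak, and its groups overlapped.

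Site 30 (chr1:3185568-3187816) had EVI1 enrichment of 5.81 in unmodified MUTZ3, 10.3 and 9.37 untreated and 6.72 and 4.81 with dox. CTBP2 was called there in untreated replicate 1 only, at 4.16.

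In CTBP2 untreated replicate 1 the highest site of the PRDM16 window was not at PRDM16. Site 39 (chr1:3369690-3373679) covered the start of ARHGEF16, with its strongest summit 204 bp downstream of that start. CTBP2 enrichment was 22.8 and 13.1 untreated, 6.62 and 6.69 with dox and 8.53 in MOLM1. The highest EVI1 enrichment of each inducible library there was 6.03 and 8.33 untreated and 6.91 and 5.02 with dox. These EVI1 summits spread over 1391 bp of the 3990 bp site, so the values need not belong to the same peak. EVI1 and CTBP2 summits of untreated replicate 1 lay 1409 bp apart, while those of replicate 2 were closer, at positions 3371415 and 3371376. The strongest CTBP2 sites without a CTBP2 peak in either dox list were sites 46, 12 and 33. Their CTBP2 enrichment in untreated replicate 1 was 10.2, 9.50 and 9.03, and none of the 3 was called in untreated replicate 2.

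**Figure D3:**
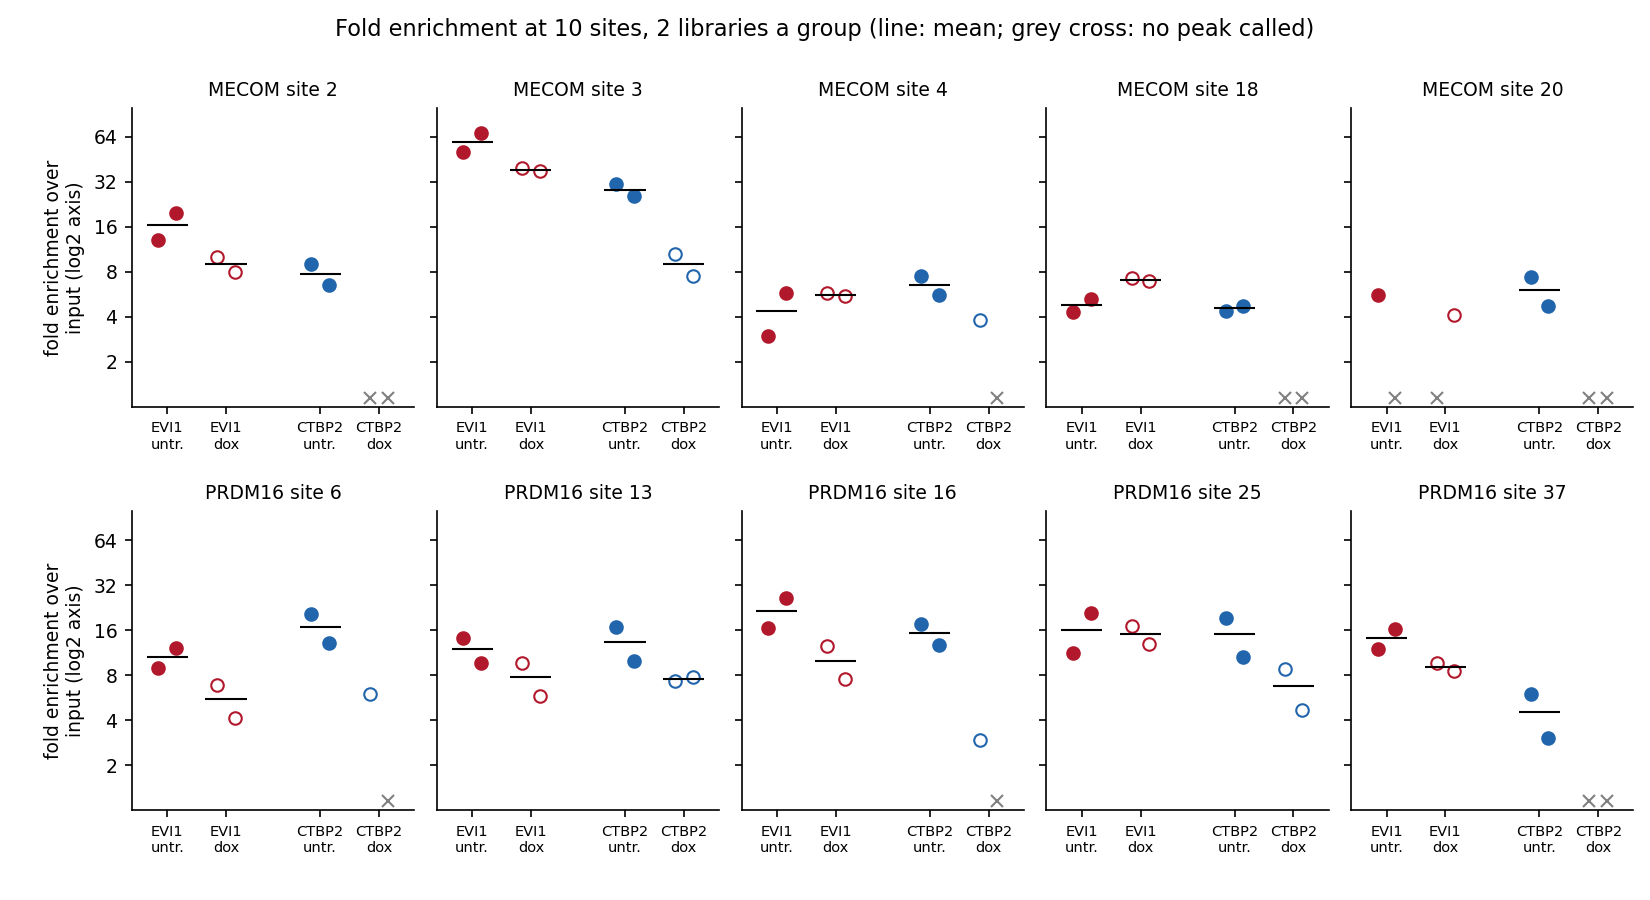
Fold enrichment over input (log2 axis) at 10 sites in the inducible cells, with 1 point per library, a line for the mean of a group with both peaks called, and grey crosses for libraries without a peak. At MECOM site 3 the lowest EVI1 value with dox is 37.8 and the highest CTBP2 value with dox is 10.5, and at MECOM site 18 both EVI1 dox values lie above the untreated ones.

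The question of the inducible libraries was where CTBP2 and EVI1 stay when the PLDLS peptide is expressed. At MECOM, CTBP2 was called in both untreated lists at 5 sites (2, 3, 4, 18 and 20), of which 2 had a CTBP2 peak with dox in replicate 1 and 1 had one in replicate 2. The kept share was 30% ± 14.1 (SD, n = 2), and 48.7% ± 3.03 (SD, n = 2) over all 37227 such sites. Without a CTBP2 peak in either dox list were 3 of the 5 MECOM sites, with a 95% Wilson interval of 23.1 to 88.2%, against 41.0% of all sites. The interval treats sites as independent, and sites of a locus are not replicates, so it is no test against the genome-wide share. With 5 sites, no difference from that share could be shown. Lists cut to an equal size of 23878 peaks left 2 such sites at MECOM and gave a kept share of 50%.

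At PRDM16, CTBP2 was called in both untreated lists at 8 sites, and with dox 6 of them had a CTBP2 peak in replicate 1 and 4 in replicate 2. The kept share was 62.5% ± 17.7 (SD, n = 2). Sites 13, 25, 36 and 39 kept CTBP2 in both dox lists, or 4 of 8 against 38.4% of all sites. Sites 37 and 41 kept it in neither. Among these, sites 13, 36 and 37 lay on tandem repeats, and sites 39 and 41 lay in ARHGEF16, outside PRDM16. The 2 windows thus lay on either side of the genome-wide kept share of 48.7%, with few sites each, and the difference was not tested. Untreated replicates disagreed most here, with 30 and 11 CTBP2 peaks in the window. The kept share of the 30 peaks of replicate 1 was 20%, a share that was not counted over the genome.

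The same was counted for EVI1. At MECOM, EVI1 was called in both untreated lists at 4 sites (2, 3, 4 and 18), and all 4 kept an EVI1 peak in both dox lists, against 78.1% of 40449 such sites genome-wide. Among EVI1 peaks called in one untreated list or both, the kept share at MECOM was 56.2%, and without untreated replicate 1 it was 66.7%. At PRDM16, EVI1 was called in both untreated lists at 14 sites, and with dox 13 of them had an EVI1 peak in replicate 1 and 12 in replicate 2. The kept share was 89.3% ± 5.05 (SD, n = 2), beside 84.5% ± 5.20 (SD, n = 2) over all such sites. Among sites called in 1 untreated list or both it was 42.4%. Without an EVI1 peak in either dox list was 1 of the 14, against 9.01% of all such sites. Without untreated replicate 1, the kept share of the 30 EVI1 peaks of replicate 2 at PRDM16 was 46.7%. Shares from a single untreated list, or from sites of either list, were not counted over the genome and cannot be set against it.

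The overlap of EVI1 and CTBP2 sites was counted in both directions. Of the 4 MECOM EVI1 sites, 4 overlapped a CTBP2 site called in both untreated lists, with a 95% Wilson interval of 51.0 to 100%, and of the 14 PRDM16 EVI1 sites 8 did (57.1%, interval 32.6 to 78.6%). The share over all EVI1 sites was 75.9%. Sites of a locus are not replicates, so these intervals are no test against it. In the other direction, 4 of 5 MECOM and 6 of 8 PRDM16 CTBP2 sites overlapped an EVI1 site, against 82.5% of all CTBP2 sites. The 8 PRDM16 EVI1 sites thus fell on 6 CTBP2 sites, and wide site 39, at the ARHGEF16 start, held more than 1 of them. Merging all 13 lists leaves 12 PRDM16 sites with EVI1 in both untreated lists, in place of 14. The PRDM16 share depended on CTBP2 untreated replicate 2, the library with 11 peaks in the window: against replicate 1 alone, 100% of the EVI1 sites had a CTBP2 peak. Without EVI1 untreated replicate 1 the share was 30%.

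**Figure D4:**
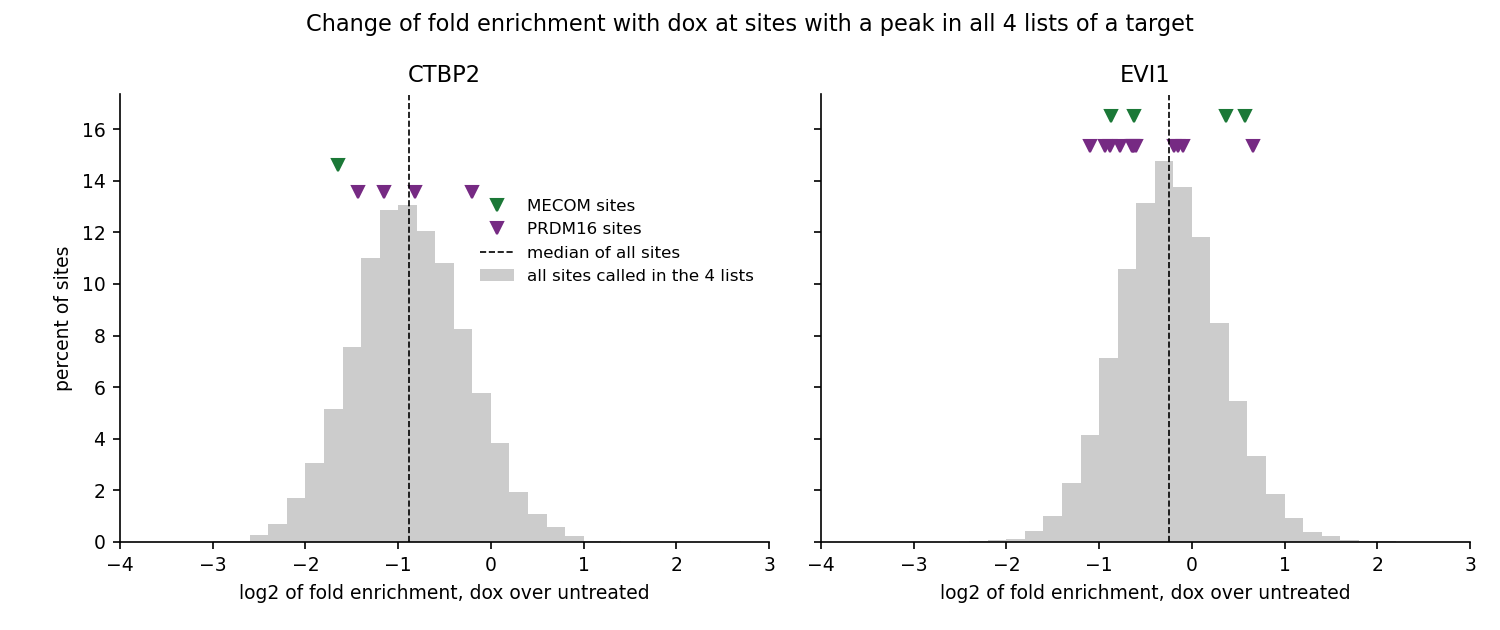
Log2 of fold enrichment with dox over untreated (means of 2 libraries each), in percent of all sites with a peak in the 4 lists of CTBP2 (left, 14297 sites) or EVI1 (right, 31340 sites). Triangles mark the MECOM and PRDM16 sites, and the dashed line the median of all sites, -0.88 for CTBP2 and -0.25 for EVI1.

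Peaks were also counted per window, whether or not both untreated lists had them. CTBP2 peaks at MECOM numbered 6 and 8 untreated and 3 and 1 with dox (7.0 ± 1.41 against 2.0 ± 1.41, SD, n = 2), a log2 ratio of -1.81 with an exact permutation p of 0.33. At PRDM16 they numbered 30 and 11 untreated and 9 and 5 with dox, a log2 ratio of -1.55 with an exact permutation p of 0.33. Without CTBP2 untreated replicate 1, the library with 30 peaks, it was -0.65, and without dox replicate 1 the MECOM ratio was -2.81. In both windows the dox counts lay below the untreated ones, as they did in 72.3% of 18377 gene windows with a CTBP2 peak, and the log2 ratio of the whole lists was -1.29. With lists of equal size the log2 ratios were -0.58 at MECOM and -0.10 at PRDM16.

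EVI1 peaks at MECOM numbered 7 and 6 untreated and 6 and 6 with dox, with overlapping groups and an exact permutation p of 1. At PRDM16 they numbered 18 and 30 untreated and 16 and 16 with dox, a log2 ratio of -0.58 with an exact permutation p of 0.33. Dox counts of EVI1 were below both untreated counts in 17.0% of 18931 gene windows with an EVI1 peak. Without EVI1 untreated replicate 2, the library with 30 peaks, the log2 ratio at PRDM16 was -0.17, and without untreated replicate 1 it was -0.91.

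The density of peaks was set against all protein-coding gene windows. In the untreated inducible lists MECOM had 1.03 and 0.882 EVI1 peaks per 100 kb against medians of 3.00 and 3.97 over all protein-coding gene windows, and 75.9% and 84.5% of the windows had as many or more. PRDM16 had 3.83 and 6.39 EVI1 peaks per 100 kb, with 42.4% and 36.0% of the windows at or above it. For CTBP2, PRDM16 had 6.39 and 2.34 peaks per 100 kb in the untreated lists against medians of 3.59 and 3.44, so its replicates lay on either side. It was below the median also in unmodified MUTZ3, MOLM1, 4xPLASS replicate 2 and dox replicate 2.

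**Figure D5:**
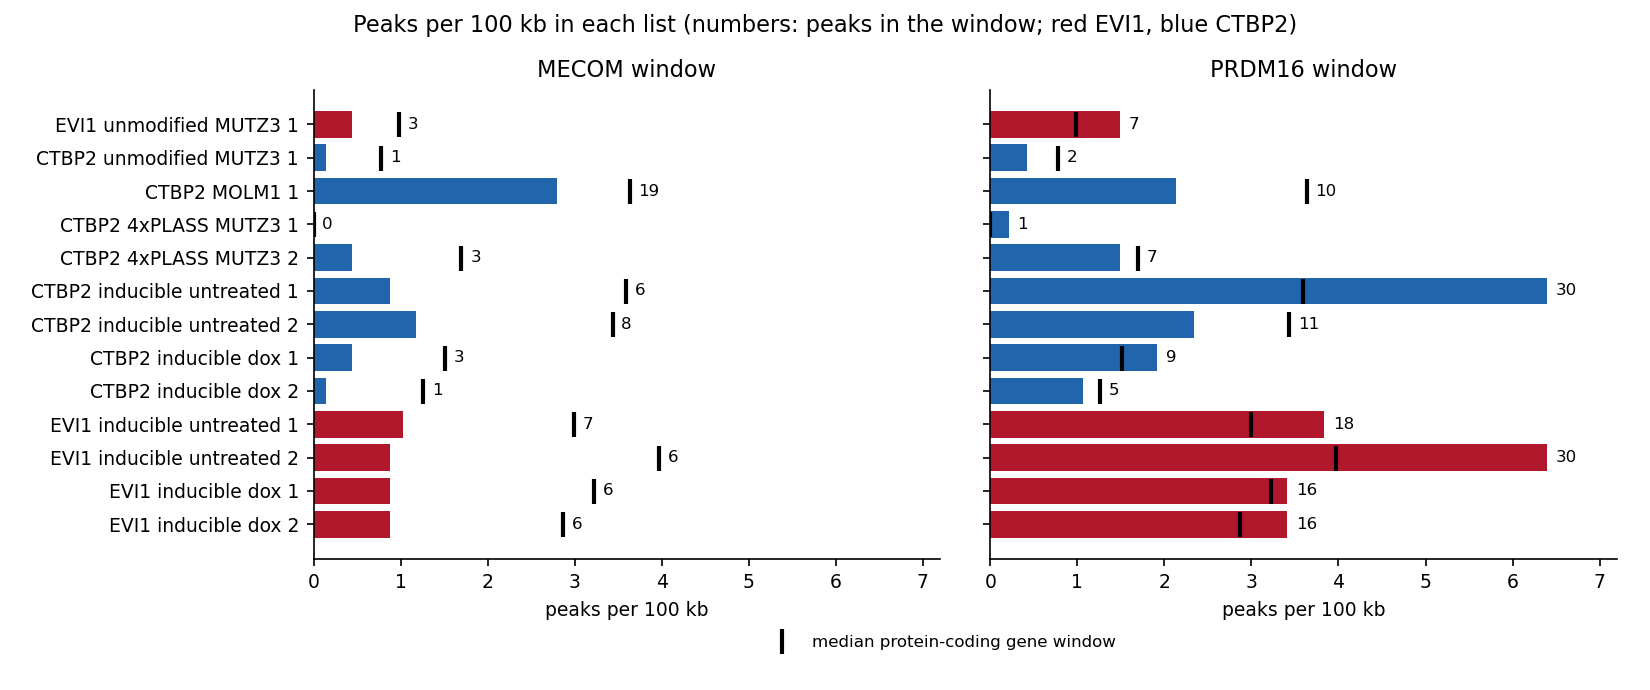
Peaks per 100 kb in the MECOM (left) and PRDM16 (right) windows in each list (bars, red EVI1 and blue CTBP2), with the number of peaks beside each bar and the median over all protein-coding gene windows as a black tick. MECOM lies below the tick in every list that has a median above 0, and PRDM16 lies on both sides of it.

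A list of 15 other genes of the PRDM family was counted in the same windows. EVI1 peaks were called in both untreated lists at 12 of them and CTBP2 peaks at 11. Most gene windows hold peaks: in the comparison of counts with dox, 18931 of 20163 had an EVI1 peak and 18377 a CTBP2 peak. The share with a peak in both untreated lists was not counted over all genes. Their EVI1 density ran from 0 to 10.7 per 100 kb, the highest at PRDM11, with a median of 3.32, and the median of all protein-coding gene windows was 3.56. Of their 63 CTBP2 sites called in both untreated lists, 19 had no CTBP2 peak in either dox list (30.2%), against 41.0% of all such sites. Of their 69 EVI1 sites, 3 had no EVI1 peak in either dox list (4.35%), against 9.01% of all such sites. These differences were not tested. Of the 17 genes including MECOM and PRDM16, only PRDM2 had a higher EVI1 peak than MECOM in untreated replicate 1, at 69.0.

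The stretch between GATA2 and RPN1 on chromosome 3, from which rearrangements bring the GATA2 enhancer to MECOM, was counted for comparison. Over its 126.8 kb the highest EVI1 enrichment was 19.2 in unmodified MUTZ3, 42.1 and 74.4 untreated and 44.3 and 32.4 with dox, and the highest CTBP2 enrichment was 33.02 and 20.7 untreated and 10.2 and 11.1 with dox. Reads of rearranged and unrearranged alleles cannot be told apart in these lists.

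No peak was called over the exon for the CTBP2-binding motif of either gene or over the shRNA target. The PLDLS codons of MECOM are at chr3:168833332-168833346, in the exon at 168833171-168834527, and read cccctggatctaagt on the minus strand. Those of PRDM16 are at chr1:3329165-3329179 and read ccgctggacctgagc on the plus strand. These coding sequences are shown because they encode the same 5 amino acids in both genes. None of the 13 lists had a peak over either exon, and the nearest sites were 30.5 kb away at MECOM and 9.06 kb away at PRDM16. The shRNA of the MOLM1 line, gcactacgtcttccttaaata, matched a coding exon of MECOM at chr3:168834396-168834416 on the minus strand, 29.5 kb from the nearest site.

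A set of motifs was searched on both strands within 100 bp of each strongest summit. AAGATAA and GATGAG resemble the binding sites described for the zinc fingers of EVI1, CGGAAG is bound by ETS factors, TGACTCA by AP-1 and TGTGGT by RUNX factors. None of these motifs contains another. At MECOM, CGGAAG lay 29 bp from the summit of site 3 and 43 and 70 bp from that of site 4, and 2 of the 22 sites held it (9.09%) against 7.61% of 129998 sites. Counted as merged sites, of those with EVI1 in both untreated lists 2 of 4 at MECOM and 1 of 12 at PRDM16 held CGGAAG, against 14.3% of all such sites. AAGATAA was in 1 of 22 MECOM and 1 of 50 PRDM16 sites (2.59% of all sites), neither of them with EVI1 in both untreated lists. GATGAG was in 1 MECOM and 8 PRDM16 sites (13.95% of all), TGACTCA in 0 and 2 (7.16%), and TGTGGT in 4 and 6 (20.9%). Any of the motifs was in 7 of 22 MECOM sites (31.8%) and 17 of 50 PRDM16 sites (34%), against 43.2% of all sites.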

How the data were processed

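The members, lists and motifs were chosen with earlier results of these data known. The authors aligned reads to hg19 (the submitters' processing notes and the study's methods) with Bowtie 1.1.1 and called peaks with MACS2 2.1.2 against an input. Each deposited list holds 1 library's peaks, with fold enrichment (a ratio of ChIP to control at the summit) and −log10 p and q values. MOLM1 and 4xPLASS CTBP2 libraries are labelled as double crosslinked, while their inputs are labelled as single crosslinked. Read depth is not given.

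Gene windows followed GENCODE release 44 on hg19, to which peak coordinates were matched: no peak passed a chromosome end. Windows were the gene and 50 kb on either side. Sites are merged overlapping peaks. Sites of a pair of lists touch peaks of both, and sharing needed an overlap of 1 bp. Where a list had several peaks in a site, the highest fold was used. Named sites were those over annotated starts, the 5 highest for EVI1 and for CTBP2 in untreated replicate 1, sites in all 13 lists (0 were found) and the 3 highest CTBP2 sites without a peak with dox. MECOM site 12 and PRDM16 site 36 were described outside this rule. The test of peak counts was an exact permutation test, two-sided. Wilson intervals (95%) take in only the error of counting and treat sites as independent, which sites of a locus are not. The labels do not say whether replicate numbers mark shared cultures. Overlaps were tested on simulated lists against bedtools 2.31.1, with Python 3.11.15, pandas 2.3.3 and scipy 1.17.1. Promoter sequences are from RefSeq (GRCh38.p14), found again in hg19 by their letters, with 0 for PRDM16.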

Additional observations from a re-analysis of the deposited data

Results flagged for a closer look

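MECOM site 18, just downstream of the MDS1 start, stood out because EVI1 was higher with dox while CTBP2 was no longer called. EVI1 fold enrichment was 4.32 and 5.25 untreated and 7.24 and 6.94 with dox, a log2 difference of 0.57. CTBP2 was 4.37 and 4.74 in the untreated lists and was called in neither dox list, so it has no value with dox. Its untreated peaks were weak, at rank 49529 of 62232 and 36900 of 56526. Of all CTBP2 sites in both untreated lists, 41.0% were called in neither dox list. EVI1 and CTBP2 summits of untreated replicate 1 lay 444 bp apart, while those of replicate 2 were closer, at positions 169380269 and 169380310. The EVI1 summits of the inducible lists spread over 306 bp, so the EVI1 values need not belong to the same peak. The difference between the factors was not tested.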

How the results depend on the processing

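Of 110 alternatives, 85 kept the direction of a count ratio or left a share within its error, 21 moved and 4 turned the direction. The 4 were EVI1 peak counts at MECOM, which were 7 and 6 untreated and 6 and 6 with dox: the log2 ratio of -0.12 became 0.14 with −log10 q of at least 5, 0.32 with fold of at least 5, 0.68 with lists of equal size and 0.14 in the gene body, and it was 0 with 100 kb flanks. The kept share of CTBP2 at MECOM was 50% with lists of equal size. With sites called in either untreated list, kept shares were 56.2% (EVI1, MECOM), 18.8% (CTBP2, PRDM16) and 42.4% (EVI1, PRDM16). The EVI1 share at PRDM16 was 77.3% with fold of at least 5, 68.8% with lists of equal size and 100% in the gene body. In unmodified MUTZ3, 33.3% of the 3 EVI1 peaks at MECOM and 14.3% of the 7 at PRDM16 overlapped CTBP2. That CTBP2 list held 16836 peaks and was labelled as a single crosslink, unlike the EVI1 list. Alternative shares here and below were not counted over the genome, so they cannot be set against all sites. The cause of these shifts was not tested.

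The labels do not say whether replicate numbers mark shared cultures. With the replicate block, the kept share, here from single untreated lists, was 69.0% (EVI1, MECOM), 31.5% (CTBP2, PRDM16) and 62.2% (EVI1, PRDM16), and log2 count ratios were -2.0 (CTBP2) and -0.11 (EVI1) at MECOM.

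Without 1 library, log2 count ratios ranged from -2.81 to -1.22 (MECOM CTBP2), -0.22 to 0 (MECOM EVI1), -2.10 to -0.65 (PRDM16 CTBP2) and -0.91 to -0.17 (PRDM16 EVI1). Kept shares ranged from 20 to 40% (MECOM CTBP2), 66.7 to 100% (MECOM EVI1), 20 to 75% (PRDM16 CTBP2) and 46.7 to 92.9% (PRDM16 EVI1). EVI1 sites with CTBP2 ranged from 66.7 to 100% at MECOM and from 30 to 100% at PRDM16. At PRDM16 the lowest kept share of CTBP2 came without CTBP2 untreated replicate 2, and the lowest of EVI1 without EVI1 untreated replicate 1. No value could be had for unmodified CTBP2 peaks at PRDM16 with either stricter threshold, as none was left.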
